A study of Ovis aries with 4 samples.

Results

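The genes described here are 5 members of the vasoactive peptide systems among the 20150 genes counted in the mammary gland of lactating sheep: the ligand gene EDN1 and the receptor genes EDNRA, AGTR1, AVPR1A and OXTR. Each was found by its symbol in the deposited gene list, where it had 1 row, paired with the identifiers ENSOARG00000014073 (EDN1), ENSOARG00000008169 (EDNRA), ENSOARG00000015385 (AGTR1), ENSOARG00000004113 (AVPR1A) and ENSOARG00000007492 (OXTR). The tissue came from 4 lactating ewes, 2 at the peak of lactation and 2 late in lactation, with 1 droplet single-cell library per ewe, and the labels name no treatment, genotype, breed or age. The titles give 2 LH and 2 LL libraries. The series text uses LL for the late stage, and LH was read as the peak stage only because no other title remains. Transcripts were counted as unique molecular identifiers (UMIs), and a level below is given in CPM, the UMIs of a gene per 1000000 UMIs of the cells summed. Counts near the 3' end do not scale with transcript length, and no length correction was made. A level was compared between cells or ewes and never between genes.

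EDN1 encodes the precursor of endothelin-1, a vasoconstrictor peptide best known as a product of endothelial cells, and EDNRA encodes the endothelin A receptor, through which it contracts vascular smooth muscle. AGTR1 encodes the type 1 angiotensin II receptor, AVPR1A the V1a vasopressin receptor and OXTR the oxytocin receptor; all of these receptors couple to Gq proteins and raise calcium inside the cell. In the mammary gland, oxytocin acts on OXTR of the myoepithelial cells that surround the alveoli, and their contraction ejects milk.

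After barcodes over 20% mitochondrial UMIs and likely doublets were left out, 35709 cells remained, between 5595 and 11365 per ewe, with a median of 2693 to 3294 UMIs per barcode in the deposited libraries. Cells were sorted by marker transcripts that are not among the 5 genes. IGFBP7 cells had at least 3 UMIs of IGFBP7, which encodes a secreted protein abundant in vascular and perivascular cells, and no other marker; they were TPM1-high where TPM1, a tropomyosin of the contractile filament, reached 1000 CPM and 2 UMIs, and TPM1-low otherwise. The TPM1-high gate held 180 and 1347 cells in LH replicates 1 and 2 and 739 and 456 in LL replicates 1 and 2. The TPM1-low gate held 167, 1322, 1639 and 1030 cells in the same order. The other gates took cells with SELP or KDR (endothelial genes), RELN, DCN (a fibroblast proteoglycan), EPCAM or CLDN4 (epithelial genes), and IDO1 with IGFBP6, and T cells and macrophages served as cells that should lack the receptors. A gate value was used from 50 cells upward in a library, and 56.5% of the kept cells fell in a gate. The IDO1 and IGFBP6 gate held 46 cells in all, 24 of which also had EPCAM or CLDN4, and was not used. The cluster that held 32 of these 46 cells, led by MMP7 and ITGB6, is described whole in its place and is called the MMP7/ITGB6 cluster; it held none of the 8 gate cells of LH replicate 2 and not the 1 of LL replicate 2. Of the fixed pericyte markers none of 7 had a symbol in the deposited list, and of those of smooth muscle and of myoepithelium only CNN1 did, so the IGFBP7 cells are called by their genes and not by a cell type. The gates fix low levels of their own markers in the IGFBP7 cells. Of the marker lists, the 4 fibroblast markers with a symbol summed to 647 to 1055 CPM in TPM1-high and 1072 to 2044 CPM in TPM1-low cells, against 26647 to 29163 CPM in DCN cells. These sums did not reflect the whole list. In the LH ewes 1 or 2 of the 4 markers had no UMI in each of the IGFBP7 gates, and in the LL ewes each had some. DCN stood at only 43.0 CPM in the largest TPM1-high cluster and 57.9 CPM in the largest TPM1-low cluster. The 3 adipocyte markers summed to 22.3 to 201 CPM in TPM1-high and 54.0 to 717 CPM in TPM1-low cells. The part of either in the receptor levels was not tested.

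The 5 genes were spread unequally over the clusters, with EDNRA, AVPR1A and AGTR1 mostly in IGFBP7 clusters and EDN1 and OXTR mostly elsewhere. Over the 25 clusters, which were built without the 5 genes and joined into classes by the same markers, the TPM1-high clusters held 55.5% of the 10547 EDNRA UMIs and the TPM1-low clusters 28.9%, although these classes held 7.66% and 7.65% of all UMIs. The TPM1-low clusters held 71.1% of the 1498 UMIs of AVPR1A and 60.8% of the 1219 UMIs of AGTR1, and the DCN clusters another 34.2% of AGTR1. The SELP/KDR cluster held 64.0% of the 561 EDN1 UMIs with 3.94% of all UMIs. The MMP7/ITGB6 cluster, with IGFBP6, MET and IDO1 also among its leading genes, held 64 of the 68 OXTR UMIs (94.1%) with 3.46% of all UMIs. Most positive cells had a single UMI: 60.4% for EDNRA, 69.3% for EDN1, 80.5% for AVPR1A, 86.2% for OXTR and 87.9% for AGTR1.

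**Figure D1:**
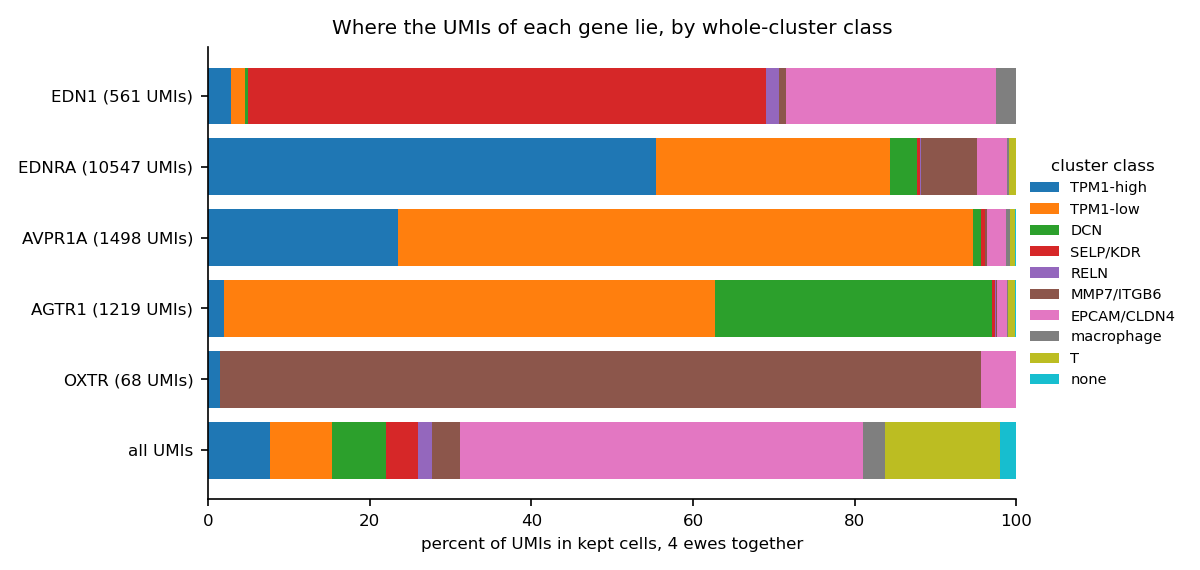
Share of the UMIs of each gene (horizontal axis, percent, 4 ewes together) that lay in each class of whole clusters (colours), with the share of all UMIs as the lowest bar. AVPR1A lies almost wholly in the IGFBP7 clusters and EDNRA mostly there, with 7.01% in the MMP7/ITGB6 cluster, AGTR1 in TPM1-low and DCN clusters, EDN1 mainly in the SELP/KDR cluster and OXTR in the MMP7/ITGB6 cluster, whereas 49.9% of all UMIs are from EPCAM/CLDN4 clusters.

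The ligand gene EDN1 was highest in the SELP/KDR cells. In the gate it stood at 43.4 CPM in LL replicate 1 (552 cells, 179 UMIs) and 32.8 CPM in LL replicate 2 (55 cells, 12 UMIs). LH replicate 2 had 46.9 CPM over only 34 cells, and LH replicate 1 had no EDN1 UMI in 3 cells, so the peak stage had too few of these cells for a comparison. The whole cluster, led by SELP, ABCG2 and KDR with SELE among its leading genes, is blood endothelium-like by the 3 fixed markers with a symbol. In it EDN1 was found in 13 of 63 cells of LH replicate 2 (20.6%, exact 95% interval 11.5 to 32.7%), 195 of 866 cells of LL replicate 1 (22.5%, 19.8 to 25.4%) and 15 of 92 cells of LL replicate 2 (16.3%, 9.42 to 25.5%). These 3 intervals overlap; they and all others below cover counting error only, and LH replicate 1 had 4 cells. EDN1 was thus seen in a minority of these cells at a median depth of 1799.5 to 3823.5 UMIs in those 3 libraries. No T cell of 2655 had an EDN1 UMI, which allows a share of cells with a UMI of up to 0.195% in LH replicate 1, the library with the most T cells. This limits detection and not the share of cells that express the gene.

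EDN1 in the RELN gate (RELN is a marker of lymphatic endothelium) followed the cells that the gate shared with the SELP/KDR cluster. The gate stood at 14.6 CPM in LH replicate 2, 25.9 CPM in LL replicate 1 and 0 CPM in LL replicate 2. Of the 83 EDN1 UMIs of LL replicate 1, 77 came from 100 cells that clustered with the SELP/KDR cells, and the 303 cells of the RELN cluster itself held 6 (4.77 CPM). Epithelial cells had EDN1 at a low level: 3.50 and 2.23 CPM in the EPCAM/CLDN4 gate of LH replicates 1 and 2 and 2.69 and 0.608 CPM in that of LL replicates 1 and 2. Because these cells held 34.0% of all UMIs, that level amounted to 20.1% of EDN1 UMIs. The share of EPCAM/CLDN4 cells with an EDN1 UMI was 3.87% and 2.13% in LH and 0.786% and 0.607% in LL, without overlap. The CPM of the stages overlapped through LL replicate 1, where 13 of the 22 UMIs lay in 1 cell. The separation of shares was not tested, and 2 ewes against 2 are too few to call it a stage difference. Median depth was 13942, 10045, 10607 and 9194 UMIs in LH replicates 1 and 2 and LL replicates 1 and 2. An epithelial cluster with 2.28 CPM of EDN1 held 194, 2033, 41 and 280 cells in that order. Another with 0.514 CPM held 13, 29, 550 and 1966. The part of depth and of this makeup was not tested. Thinned to 2000 UMIs, the mean share over the 4 ewes was 0.375% ± 0.272 (SD, n = 4). In the IGFBP7 cells EDN1 was near the limit of detection, with 11 UMIs in all TPM1-high and 14 in all TPM1-low cells.

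EDNRA was high in the IGFBP7 cells of every ewe. In TPM1-high cells it stood at 325, 405, 281 and 385 CPM in LH replicates 1 and 2 and LL replicates 1 and 2 (349 ± 56.5, SD, n = 4). In TPM1-low cells it stood at 213, 244, 171 and 220 CPM in the same order (212 ± 30.5). The gates did not overlap, since the lowest TPM1-high value was above the highest TPM1-low value. The share of cells with an EDNRA UMI was 56.3% ± 6.33 and 37.5% ± 5.49 (SD, n = 4), at median depths of 3128.5 and 2547 UMIs, against 1.30% ± 0.948 in T cells with a median of 3240 UMIs. Thinned to 2000 UMIs per cell, with shallower cells left out, these shares were 44.1% ± 4.53, 29.8% ± 3.39 and 0.515% ± 0.436. The MMP7/ITGB6 cluster had 136, 268, 35.7 and 119 CPM in LH replicates 1 and 2 and LL replicates 1 and 2, above the DCN cells of each library with a DCN value. DCN cells had 22.7 CPM in LH replicate 1, 22.9 CPM in LL replicate 1 and 40.6 CPM in LL replicate 2, above the T cells of the same libraries (3.28, 11.2 and 1.07 CPM). Macrophages had 1.72, 33.1, 6.59 and 32.7 CPM in LH replicates 1 and 2 and LL replicates 1 and 2, a range that overlapped the DCN level between libraries. Within each library with a DCN value the DCN cells were higher. Macrophage-gate cells that belonged to macrophage clusters had 1.78, 13.1, 1.47 and 2.78 CPM in the same order. DCN-gate cells of DCN clusters had 22.8, 22.0 and 40.3 CPM in LH replicate 1 and LL replicates 1 and 2.

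AGTR1 and AVPR1A were both lower in TPM1-high than in TPM1-low cells but differed in DCN cells. AGTR1 stood at 9.81, 45.1, 51.9 and 37.9 CPM in the TPM1-low cells of the ewes in the same order (36.2 ± 18.5, SD, n = 4), where LH replicate 1 was low on 8 UMIs. In TPM1-high cells it stood at 0, 3.61, 7.35 and 6.26 CPM, without overlap. In LH replicate 1, 39 of the 167 TPM1-low cells belonged to the MMP7/ITGB6 cluster and held no AGTR1 or AVPR1A UMI. The TPM1-low gate cells of TPM1-low clusters had 29.5, 54.4, 62.1 and 48.1 CPM of AGTR1 in the same order of ewes. Their AVPR1A stood at 58.9, 108.8, 49.3 and 102.7 CPM. DCN cells had 42.6, 31.6 and 35.7 CPM of AGTR1 in LH replicate 1 and LL replicates 1 and 2 (36.6 ± 5.55, SD, n = 3), a level that overlapped that of the TPM1-low cells. Within LH replicate 1 it was higher in DCN than in TPM1-low cells, and in LL replicate 1 lower. AVPR1A stood at 23.3, 91.8, 46.4 and 83.2 CPM in TPM1-low cells (61.2 ± 32.0, SD, n = 4) and at 7.44, 41.5, 23.98 and 15.6 CPM in TPM1-high cells (22.1 ± 14.6). These ranges overlapped between ewes, but TPM1-low was the higher gate in 4 of 4 ewes. In DCN cells AVPR1A was at 1.25 ± 0.264 CPM (SD, n = 3), with 16 UMIs in 3411 cells. Among the IGFBP7 and DCN gates, then, EDNRA was highest in TPM1-high and AVPR1A in TPM1-low cells, and AGTR1 was highest in TPM1-low and DCN cells, which did not differ beyond their spread.

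**Figure D2:**
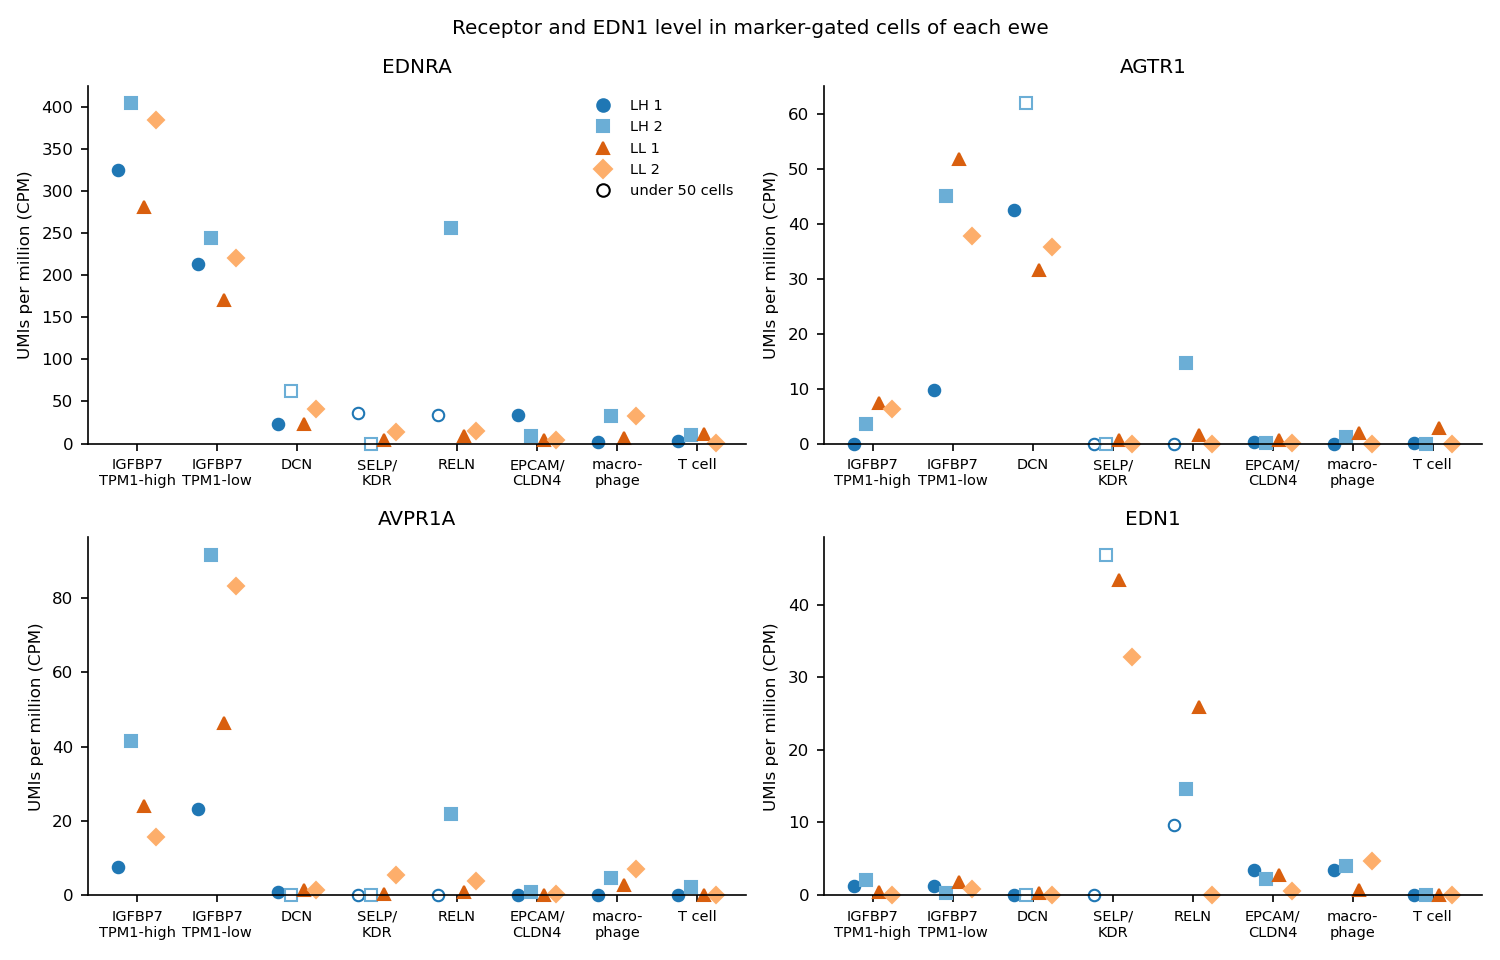
Level of EDNRA, AGTR1, AVPR1A and EDN1 (vertical axis, CPM) in each marker gate (horizontal axis), 1 point per ewe, with open points for gates of under 50 cells. EDNRA is at least 171 CPM in both IGFBP7 gates of every ewe, AGTR1 is high in TPM1-low and DCN cells, AVPR1A in TPM1-low cells and EDN1 in SELP/KDR cells; the RELN gate of LH replicate 2 holds many cells of IGFBP7 clusters.

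The point of LH replicate 2 in the RELN gate, at 256 CPM of EDNRA against 8.72 and 14.8 CPM in LL replicates 1 and 2, rests on cells of other clusters. Of its 92 cells 24 belonged to TPM1-high and 41 to TPM1-low clusters, and these carried 26 and 39 of its EDNRA UMIs; the 10 cells of the RELN cluster carried 2. Its 4 UMIs of AGTR1 lay in the TPM1-low clusters, as did 4 of its AVPR1A UMIs.

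Counts were then summed per ewe for the TPM1-high and the TPM1-low cells and compared with the ewe as a block (edgeR's quasi-likelihood test, Benjamini-Hochberg adjustment over 10460 genes). EDNRA was higher in TPM1-high cells by 0.81 ± 0.082 on the log2 scale (SE; edgeR adjusted p = 2.44e-05), higher in 4 of 4 ewes. AGTR1 was lower in TPM1-high cells, with a log2 difference of -3.03 ± 0.22 (edgeR adjusted p = 2.35e-06), and AVPR1A was lower, with -1.26 ± 0.20 (edgeR adjusted p = 7.12e-04), each in 4 of 4 ewes. This was a comparison in which 22.8% of all genes passed the threshold of 0.05, 10.5% higher and 12.3% lower. The 3 receptors that passed the filter on low counts therefore belong to a wide difference between the gates, and EDN1 and OXTR did not pass that filter. Without the block, AVPR1A did not pass (edgeR adjusted p = 0.153), and EDNRA and AGTR1 did (edgeR adjusted p = 0.00894 and 0.0124).

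The receptors were then followed over the TPM1 level of the cell. In cells without a TPM1 UMI EDNRA stood at 262, 170, 158 and 188 CPM in LH replicates 1 and 2 and LL replicates 1 and 2, and in cells of 2000 to 4000 CPM of TPM1 at 341, 421, 250 and 476 CPM. AGTR1 went from 11.9, 62.2, 85.7 and 54.8 CPM in cells without a TPM1 UMI to 0, 2.15, 0.995 and 0 CPM at 2000 to 4000 CPM of TPM1. AVPR1A went from 47.6, 113, 60.8 and 106 CPM to 0, 30.1, 19.9 and 2.36 CPM. EDNRA was thus present at every TPM1 level, and AGTR1 was close to absent above 2000 CPM of TPM1. Cells without a TPM1 UMI had fewer UMIs, with medians of 1957 to 2973 against 2690.5 to 4065 at 2000 to 4000 CPM; the part of depth in the assignment to a bin was not tested.

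**Figure D3:**
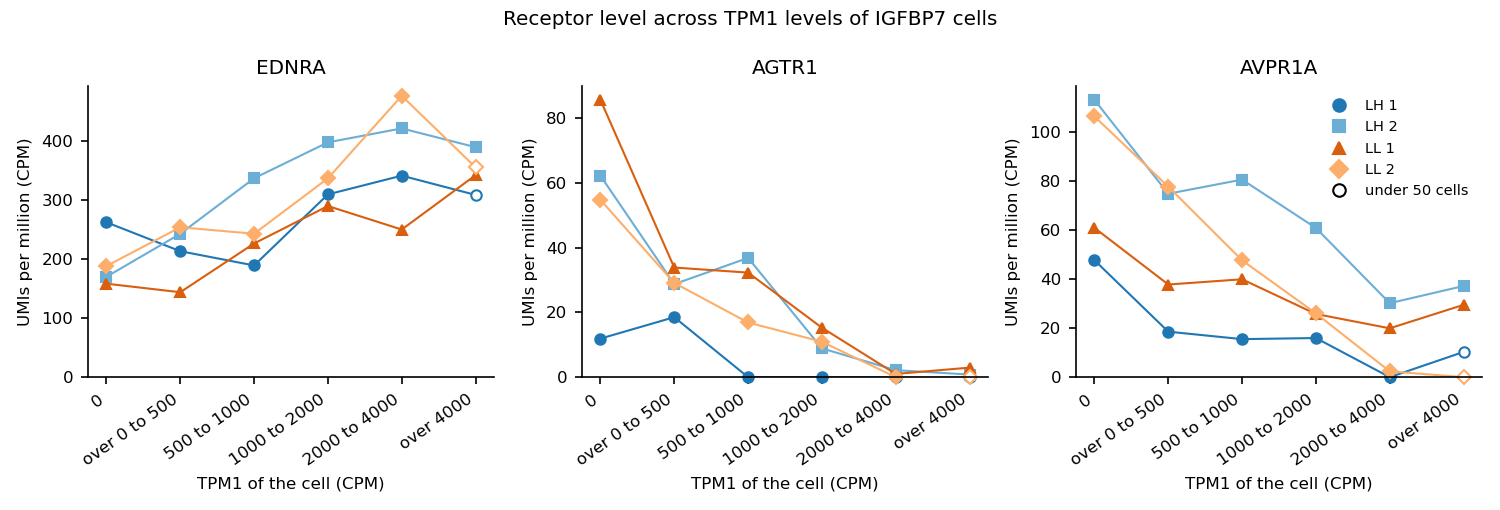
Level of each receptor (vertical axis, CPM) in IGFBP7 cells grouped by the TPM1 level of the cell (horizontal axis, CPM), 1 line per ewe, with open points for under 50 cells. EDNRA is present in every group and higher toward high TPM1, whereas AGTR1 falls from up to 85.7 CPM to at most 2.95 CPM and AVPR1A falls in each ewe.

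Whole clusters showed further differences inside the IGFBP7 cells. The main TPM1-high cluster (4452 cells) had 344, 413, 310 and 381 CPM of EDNRA in LH replicates 1 and 2 and LL replicates 1 and 2. A smaller TPM1-high cluster of 740 cells, led by MEF2C and PPARG, had 1036, 1100, 705 and 833 CPM of EDNRA, above the main cluster in every ewe. These cells were shallow, with a median of 1070 UMIs against 2806 in the main cluster, and the part of depth in their EDNRA level was not tested. The main TPM1-low cluster (4425 cells), led by FABP4 and IGFBP7, had 29.0, 47.4, 81.9 and 51.9 CPM of AGTR1 and 58.0, 98.3, 69.4 and 112 CPM of AVPR1A. Another TPM1-low cluster of 808 cells, led by FABP4 with FST and PTGS2 among its leading genes, had less of each receptor in the 2 LL ewes, which held most of it: 128 and 147 CPM of EDNRA against 218 and 247 CPM in the main TPM1-low cluster, 34.2 and 21.8 CPM of AGTR1, and 23.8 and 52.7 CPM of AVPR1A. A further TPM1-low cluster of 824 shallow cells (median 802 UMIs), led by FGF12 and PPARG, had more EDNRA than the main one in every ewe, with 671 (17 cells), 321, 246 and 430 CPM against 307, 233, 218 and 247 CPM. No test was made between clusters, since they were formed from the expression of the same cells.

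FABP4, which encodes a lipid carrier found in fat and capillary cells, also marked a difference within the TPM1-low gate. In LL replicates 1 and 2 the cells with a FABP4 UMI had 72.9 and 50.8 CPM of AGTR1, and those without had 31.6 and 27.2 CPM. In LH replicate 2 the values were 53.9 and 43.6 CPM, and in LH replicate 1 they were 0 CPM over 22 cells and 10.8 CPM over 145 cells, so the direction held in 3 of 4 ewes. EDNRA went the other way in the same 3 ewes, with 168, 136 and 208 CPM in FABP4-positive and 257, 205 and 231 CPM in FABP4-negative cells of LH replicate 2 and LL replicates 1 and 2. The adipocyte markers ADIPOQ and PLIN1 were at 8 UMIs and 1 UMI in all TPM1-low cells.

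OXTR was rare and lay outside the IGFBP7 cells: the TPM1-high gate had 1 UMI and the TPM1-low gate 3 UMIs, all in 1 cell. In the MMP7/ITGB6 cluster it was found in 0 of 171 cells of LH replicate 1, which allows a share of cells with a UMI of up to 1.75% by 3 counts (exact upper limit 2.13%), and in 19 of 157 cells of LH replicate 2 (12.1%, exact 95% interval 7.45 to 18.3%). In LL it was found in 6 of 395 cells of replicate 1 (1.52%, 0.559 to 3.28%) and 29 of 367 cells of replicate 2 (7.90%, 5.36 to 11.2%). As levels these were 0, 39.2, 3.67 and 20.7 CPM. The ewes of each stage differed more than the stages, and the stages overlapped. LH replicate 1 had the deepest cells of this cluster, with a median of 9380 UMIs against 3351 to 3665 in the other ewes, so its 0 count came from the most deeply read cells. Its cells also differed in other genes: IDO1 stood at 332 CPM in LH replicate 1 and at 0, 18.9 and 3.34 CPM in LH replicate 2 and LL replicates 1 and 2, and CNN1 at 12.1 against 39.2, 106 and 30.7 CPM. No IDO1 UMI was found in the 54 OXTR-positive cells. All of these came from the ewes with 0, 18.9 and 3.34 CPM of IDO1 in this cluster. Few IDO1 UMIs could be met in so few cells at those levels, so the count cannot tell whether the genes share cells.

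This cluster carried markers of more than one cell type and was given no cell type name. EPCAM stood at 129 CPM and CNN1, a contractile protein of smooth muscle and myoepithelium, at 47.1 CPM over the 4 ewes, against 122 CPM of CNN1 in the main TPM1-high cluster. The relation of OXTR to CNN1 differed between the ewes. In LH replicate 2 OXTR was found in 7 of 21 CNN1-positive cells (33.3%, exact 95% interval 14.6 to 57.0%) and 12 of 136 CNN1-negative cells (8.82%, 4.64 to 14.9%), intervals that overlapped narrowly. It was found in 1.77% of 113 CNN1-positive and 1.42% of 282 CNN1-negative cells of LL replicate 1, and in 5.88% of 34 and 8.11% of 333 such cells of LL replicate 2. EDNRA was found in 24.9% of the cells of the same cluster. EDNRA and OXTR were found together in 13 cells. Pooled over the ewes, EDNRA was found in 24.1% of OXTR-positive and 24.9% of OXTR-negative cells, but LH replicate 1 gave 96 EDNRA-positive cells and no OXTR-positive cell. By ewe the shares were 42.1% and 35.5% in LH replicate 2, 16.7% and 9.77% in LL replicate 1, and 13.8% and 22.2% in LL replicate 2. These rest on 19, 6 and 29 OXTR-positive cells, and the direction differed between ewes. AGTR1 and AVPR1A were nearly absent there, with 2 and 4 UMIs.

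**Figure D4:**
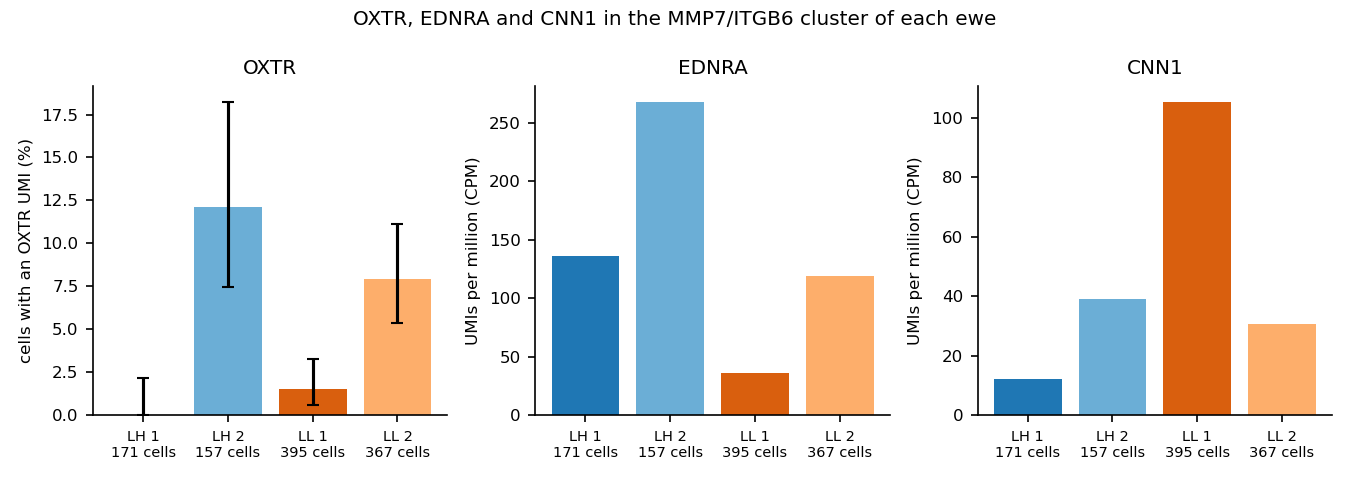
The MMP7/ITGB6 cluster in each ewe: the share of cells with an OXTR UMI (left, percent, bars with exact 95% intervals), and the levels of EDNRA and CNN1 (middle and right, CPM, 1 bar per ewe). OXTR was found in 12.1% and 7.90% of the cells of LH replicate 2 and LL replicate 2, in 1.52% of LL replicate 1 and in none of LH replicate 1.

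Whether single cells carry more than 1 receptor was read from IGFBP7 cells thinned to 2000 UMIs, setting the cells with UMIs of both genes against the number that independent detection within each ewe would give. Of 2989 TPM1-low cells, 59.6% had a UMI of none of EDNRA, AGTR1 and AVPR1A, 35.3% of 1 gene, 4.98% of 2 and 0.100% (3 cells) of all of them. Of 2425 TPM1-high cells the shares were 51.6%, 45.8%, 2.56% and 0.0412%. Receptor pairs were therefore seen in single cells, but at this depth a cell without a UMI cannot be called negative.

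EDNRA and AVPR1A met in 80 TPM1-low cells, close to the 87.4 expected (observed over expected 0.722 to 1.03 in the 4 ewes), and in 55 TPM1-high cells against 60.8 expected. EDNRA and AGTR1 met in 46 TPM1-low cells against 58.7 expected. LL replicate 1 had 17 cells against 26.0, LH replicate 2 had 19 against 19.9, LL replicate 2 had 10 against 11.2 and LH replicate 1 had 0 against 1.49. Thinned to 1000 UMIs, it was LH replicate 2 that had the widest gap of the 4, with 5 against 10.1, and LL replicate 1 had 11 against 13.4. AGTR1 and AVPR1A met in 32 TPM1-low cells against 20.9 expected, with 15 against 9.10 in LH replicate 2, 13 against 8.09 in LL replicate 1, 3 against 3.38 in LL replicate 2 and 1 against 0.292 in LH replicate 1. This pair was above expectation in 3 of 4 ewes, on small counts; in LH replicate 2 AVPR1A was found in 23.4% of AGTR1-positive and 13.5% of AGTR1-negative cells. Cells within an ewe are not replicates, and no p-value was computed.

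**Figure D5:**
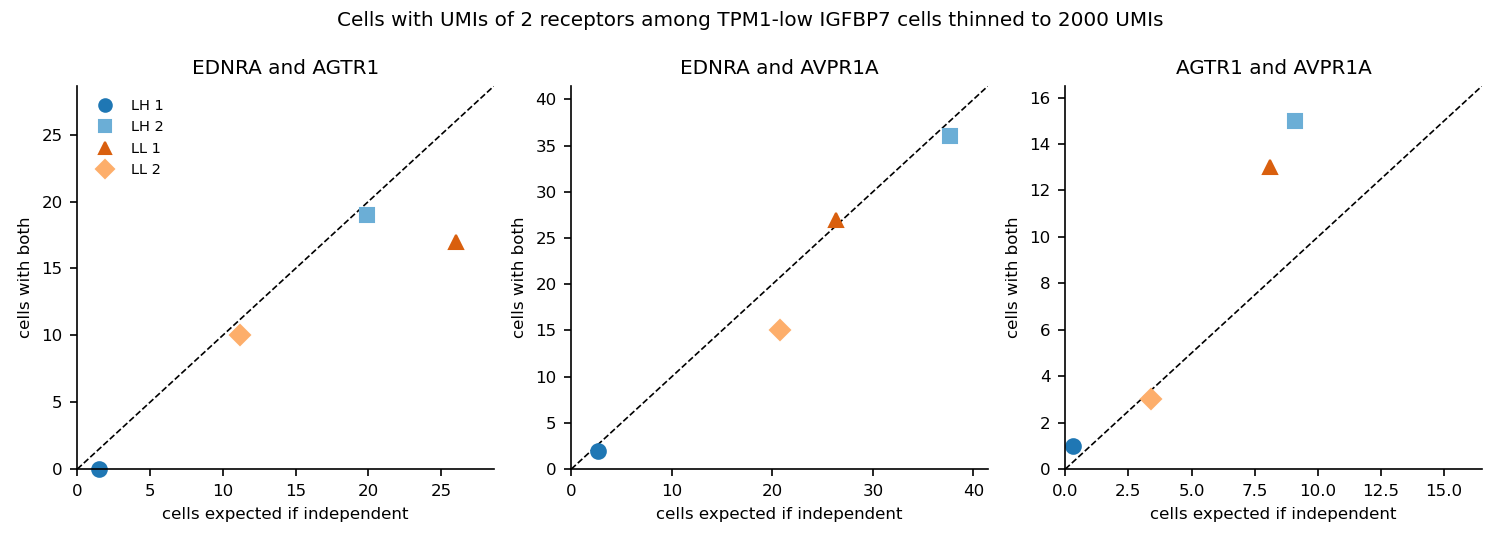
Number of TPM1-low IGFBP7 cells with UMIs of both receptors of a pair (vertical axis) against the number expected from independent detection (horizontal axis), 1 point per ewe, cells thinned to 2000 UMIs; the broken line marks equality. Points for EDNRA and AVPR1A lie near or below the line, LL replicate 1 lies below it for EDNRA and AGTR1, and LH replicate 2 and LL replicate 1 lie above it for AGTR1 and AVPR1A.

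The last comparison was between the late and the peak stage within a gate (edgeR's quasi-likelihood test on sums per ewe, 2 ewes against 2). None of the 10 member and gate combinations that passed the filter on low counts was called, in a comparison where 0.0222% of 9011 genes passed in TPM1-high, 0% of 10179 in TPM1-low, 0.00775% of 12902 in EPCAM/CLDN4, 0.0397% of 7554 in T and 0% of 8364 genes in macrophage cells; DESeq2, which gave AGTR1 in TPM1-high cells no adjusted p, called 1 of the others, the one that alone had an unadjusted edgeR p under 0.05 (EDNRA in EPCAM/CLDN4 cells). Where edgeR called 0 genes, an unadjusted p under 0.05 was reached by 497 genes in TPM1-low cells and 495 in macrophages, and DESeq2 called 22 and 15. EDNRA differed by -0.16 ± 0.20 on the log2 scale (SE, LL minus LH) in TPM1-high and by -0.17 ± 0.20 in TPM1-low cells (edgeR adjusted p = 0.950 and 0.901), and the ewes of the stages overlapped in each gate. AGTR1 differed by 1.35 ± 0.74 in TPM1-high and 0.67 ± 0.59 in TPM1-low cells (edgeR adjusted p = 0.843 and 0.870). AVPR1A differed by -0.46 ± 0.59 and 0.17 ± 0.61 (edgeR adjusted p = 0.950 and 0.996). The TPM1-low gate of LH replicate 1 included 39 cells of the MMP7/ITGB6 cluster, whose part in these differences was not tested. Counts were simulated for the TPM1-low comparison with 1 fixed dispersion of 0.05 for every gene. Of genes changed by 1 log2 unit 9.57% were called, and of those changed by 2 units 77.2%. Differences of the size measured in these cells would thus seldom have been called. The median error of the simulated differences was 0.23, below the SE of AGTR1 and AVPR1A in these cells, so the simulated shares may be too high for these genes. No simulation was made for TPM1-high cells. The stage difference itself was compared between the gates: the interaction was 0.036 ± 0.17 for EDNRA, 0.90 ± 0.47 for AGTR1 and -0.37 ± 0.43 for AVPR1A (edgeR adjusted p = 1.000 for each), where 0% of 10460 genes passed with edgeR and 0 with DESeq2, and 338 reached an unadjusted edgeR p under 0.05.

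An EDNRA UMI was found in 53.6% and 49.1% of the IGFBP7 cells of the LH ewes, above the 38.8% and 39.8% of the LL ewes, a difference of -12.0 percentage points (exact two-sided permutation p = 0.333, the smallest that 2 ewes against 2 allow). Thinned to 2000 UMIs per cell the LH ewes had 38.1% and 41.3% and the LL ewes 29.3% and 37.3%, a difference of -6.41 points (exact permutation p = 0.333). AGTR1 was found in 2.02% and 5.28% of these cells in LH against 10.4% and 6.53% in LL (exact permutation p = 0.333), and thinned in 1.52% and 3.57% against 5.41% and 4.16%, the ewes not overlapping in either. That share pools TPM1-high and TPM1-low cells, whose numbers differ between the ewes: TPM1-low cells outnumbered TPM1-high cells in both LL ewes (1639 against 739 and 1030 against 456) and were slightly fewer in both LH ewes (167 against 180 and 1322 against 1347). Within TPM1-low cells AGTR1 was found in 7 of 167 and 125 of 1322 cells in LH. In LL it was found in 231 of 1639 and 89 of 1030, and the stages overlapped, also when thinned to 2000 UMIs. In TPM1-high cells the stages did not overlap, on 0 and 16 positive cells in LH and 16 and 8 in LL. The part of the numbers of TPM1-high and TPM1-low cells in the pooled share was not tested.

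In the epithelial gate EDNRA showed the largest stage difference of the tested members, -2.23 ± 0.66 on the log2 scale (edgeR's quasi-likelihood test, unadjusted p = 0.0189 and adjusted p = 0.551, with a DESeq2 adjusted p of 0.0457). The level was 33.9 CPM in LH replicate 1 and 8.82 CPM in LH replicate 2, above the 4.28 and 4.04 CPM of the LL ewes. In LH replicate 1, 162 of the 174 EDNRA UMIs came from 67 cells of the MMP7/ITGB6 cluster that passed the EPCAM/CLDN4 gate. Cells of the gate that belonged to epithelial clusters had 3.03, 5.85, 3.37 and 2.01 CPM in LH replicates 1 and 2 and LL replicates 1 and 2, where the stages overlapped. EDN1 in this gate differed by -0.82 ± 0.75 (edgeR adjusted p = 0.785).

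The deposited symbols covered few of the other genes of these pathways, so absence of a name says nothing of a gene. Of the endothelin system 2 of 8 listed genes had a symbol (EDN1 and EDNRA), of the renin-angiotensin system 2 of 10 and of the vasopressin and oxytocin system 4 of 7. OXT, the gene of the oxytocin precursor, had 294 UMIs and was highest in macrophages (22.6 ± 9.73 CPM, SD, n = 4) and at most 3.87 CPM on average in any other gate; AVPR1B, the other vasopressin receptor with a symbol, had none. Among the other vasoactive genes with a symbol, PTGS2, the inducible prostaglandin synthase, was highest in DCN cells (296 ± 88.3 CPM, SD, n = 3), with 33.3 ± 13.9 CPM in TPM1-high and 48.1 ± 25.0 CPM in TPM1-low cells (SD, n = 4). NPPB, VIP and PTGS1 had at most 1 UMI in either IGFBP7 gate.

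Of 5 genes of calcium signalling and contraction with a symbol, 1 was higher and 1 lower in TPM1-high than in TPM1-low cells, with 2 of the 5 not passing the low-count filter, in a comparison where 10.5% of all genes were higher and 12.3% lower. CNN1 rose by 3.90 ± 0.23 on the log2 scale (edgeR adjusted p = 5.77e-07), from 8.96 ± 5.27 to 117 ± 16.9 CPM (SD, n = 4). ATP1B1, a sodium pump subunit that the epithelial cells carry at 382 ± 178 CPM, was lower by a log2 difference of -1.44 ± 0.20 (edgeR adjusted p = 2.95e-04). RHOA, the small GTPase of the contractile pathway, was at 70.9 ± 7.47 and 68.9 ± 7.38 CPM in TPM1-high and TPM1-low cells (edgeR adjusted p = 0.295), and PTGS2 had an edgeR adjusted p of 0.105. None of the list members with a symbol passed the stage comparison in a tested gate.

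Over the 28 sums of gate and library with at least 50 cells, the 3 named genes closest to each member by Pearson correlation of log2(CPM + 1) were, for EDNRA, REM1 (0.915), LPL (0.901) and SLC25A4 (0.878). For AVPR1A they were the same genes, REM1 (0.860), SLC25A4 (0.846) and LPL (0.821), and AVPR1A and EDNRA correlated at 0.872. For AGTR1 they were SNAI2 (0.818), FGF12 (0.815) and FGF7 (0.806), the latter 2 being fibroblast growth factor family genes, and for EDN1 they were NR5A2 (0.789), the endothelial adhesion molecule SELE (0.733) and the transporter ABCG2 (0.686). OXTR was left out, since these sums hold no gate of the MMP7/ITGB6 cluster. These are descriptions over sums that share ewes and libraries, and only 457 genes with a symbol reached the level considered.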

How the data were processed

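The authors deposited raw UMI counts for each gene in each barcode, and these counts were the start. Per the submitters' processing notes Cell Ranger 5.0.1 made them, whereas the file headers name 7.2.0. The genome build was not given in the sources used here, so no coordinates or sequences are printed. Of 20150 genes, 774 had a symbol. Libraries held 28015149 to 65339993 UMIs in 5955 to 12733 barcodes, and 158 barcode sequences occurred in 2 libraries.

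Barcodes over 20% mitochondrial UMIs (13 genes) were left out. Doublets were the highest Scrublet-type scores at 0.8% per 1000 barcodes, a rule set after the automatic threshold called none in 1 library; it removed 4.41% to 10.1% of the cells. Marker gates used at least 2 UMIs, or for DCN at least 5 UMIs and 1000 CPM, and cells passing 2 gates were left out. Clusters (scanpy 1.11.5, 2000 variable genes, 30 components, 20 neighbours, Leiden resolution 1) excluded the 5 genes, and the marker levels that joined clusters into classes were set after the data were seen. The 5 genes, the lists and the gates were chosen with earlier results of these data known.

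Counts summed per ewe and gate were tested with edgeR 4.0.16 (R 4.3.3; TMM, filterByExpr with a minimum count of 10, adjusted p under 0.05), after a test on simulated data. DESeq2 1.42.0 was an alternative, with other normalization, filters, gates and left-out libraries. CPM levels used unscaled totals. Exact intervals were Clopper-Pearson at 95%; a count of 0 allows 3 counts. The named genes were the 5 members, the 3 closest genes to each but OXTR, and list genes that passed or were among the 5 most abundant in IGFBP7 cells. P-values measure the spread between 4 ewes. Some genes of the lists are not reported here.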

Additional observations from a re-analysis of the deposited data

Results flagged for a closer look

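Among 22 sets of 4 ewes (1 gene in 1 gate), 6 had 1 ewe standing apart from the other 3. The limit was Dixon's 95% critical value for the gap over the range. Chance alone exceeds it in about 1 set in 20 for normally distributed values, a rate that sparse counts need not follow. EDNRA in EPCAM/CLDN4 cells was 33.9 CPM in LH replicate 1 against 4.04 to 8.82 CPM in the others, on 174 UMIs, most of them from cells of the MMP7/ITGB6 cluster. The other 5 rest on few UMIs. AGTR1 was 0.611 CPM in EPCAM/CLDN4 cells of LL replicate 1 (5 UMIs) and 2.79 CPM in T cells of the same ewe (4 UMIs). AVPR1A was 2.03 CPM in T cells of LH replicate 2 (2 UMIs). OXTR was 0.782 CPM in TPM1-high cells of LL replicate 2 (1 UMI) and 0.933 CPM in TPM1-low cells of LH replicate 2 (3 UMIs). In these AVPR1A and OXTR sets the other ewes were at 0 CPM, where any UMI in 1 ewe makes it stand apart.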

How the results depend on the processing

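The higher EDNRA and lower AGTR1 in TPM1-high cells passed under all alternatives run; AVPR1A lost its call without the replicate block (log2 -1.28), where 709 genes were called instead of 2384. DESeq2 called 1569. Leaving out 1 ewe gave 1421 to 2536 genes, 0.79 to 0.84 for EDNRA, -3.23 to -2.75 for AGTR1 and -1.46 to -0.99 for AVPR1A.

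For LL against LH, the members called went from 0 to 1 with DESeq2 (EDNRA in EPCAM/CLDN4 cells). Genes called in TPM1-high cells (2) became 19 with DESeq2, 203 without the low-count filter, 1 and 6 with TPM1 limits of 500 and 2000 CPM, and 1 to 229 leaving out 1 ewe, with 156 without LH replicate 1 and 229 without LH replicate 2. In TPM1-low cells (0) they became 22 with DESeq2, 6 without the filter, 1 with the replicate block, 6 with whole clusters and 0 to 388 leaving out 1 ewe, with 388 without LH replicate 2. In EPCAM/CLDN4 cells (1) they became 195 with DESeq2, 12 without the filter, 2 with doublets kept, whole clusters or stricter gates, and 0 to 4 leaving out 1 ewe. For these fits a lone ewe of a stage is assumed to vary like the other stage. The replicate numbers name different ewes, and no member was called with that block.

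No member difference between stages was called by edgeR, and several changed sign. EDNRA became 0.034 in TPM1-high and 0.0058 in TPM1-low cells without LL replicate 1 (lowest -0.37 and -0.33 leaving out another ewe). AVPR1A became 1.39 in TPM1-high cells without LH replicate 2 (lowest -0.98), and -0.44, -0.25 and -0.064 in TPM1-low cells without LH replicate 1, without LL replicate 2 and with whole clusters (highest 1.47). Its share of IGFBP7 cells went from 0.260 to -3.11 points without LH replicate 1 (3.63 without LH replicate 2) and to -0.555 points when thinned. The EDNRA share difference ran from -14.3 to -9.79 points leaving out 1 ewe. The interaction of EDNRA (0.036) became -0.021 without the filter, -0.018 with doublets kept, -0.033 with whole clusters, -0.081 with stricter gates, and -0.036 to 0.10 leaving out 1 ewe (-0.036 without LH replicate 1, -0.028 without LL replicate 2). That of AGTR1 (0.90) became -0.87 with a TPM1 limit of 2000 CPM, -1.28 with whole clusters and 0.82 to 4.75 leaving out 1 ewe. That of AVPR1A (-0.37) ran from -1.25 to 0.21, with 0.11 without LH replicate 2 and 0.21 without LL replicate 2. Genes called for the interaction (0) became 46 without the filter, 3 with doublets kept, 2 and 1 with TPM1 limits of 500 and 2000 CPM, 4 with whole clusters, and 0 to 248 leaving out 1 ewe. The cause of these changes was not tested.

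With whole clusters EDNRA was 419 and 243 CPM in TPM1-high and TPM1-low cells, and EDN1 57.5 CPM in SELP/KDR cells. Leaving out 1 ewe gave 330 to 371 and 202 to 226 CPM of EDNRA, 31 to 45 CPM of AGTR1 and 51 to 74 CPM of AVPR1A in TPM1-low cells. Observed over expected pairs stayed within 1 SD over ewes under each thinning, but this limit was wide. In TPM1-low cells the SD was 0.436 around 0.784 for EDNRA and AGTR1, and 1.08 around 1.53 for AGTR1 and AVPR1A. For these pairs a ratio on the other side of 1 could also have passed. In all, 292 of 349 recomputed values stayed within the limit set for their kind. For a fit this was the same direction and side of the threshold, and for a share the same direction. For a level or a pair ratio it was a change under 1 SD. For a count of genes it was an equal count or one within a fixed factor.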
